A study of Caenorhabditis elegans with 21 samples.

Results

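Messenger RNA of 8 small RNA factors of *Caenorhabditis elegans* was followed here through 21 RNA sequencing libraries of whole animals: *dcr-1*, *rde-4*, *rrf-3* and *eri-1*, which act where double-stranded RNA is made and cut, and *nrde-1*, *nrde-2*, *nrde-3* and *nrde-4*, which silence genes inside the nucleus. The genes were taken by name, with no threshold on their values but with earlier results of these data known, and all 8 were found in the table of adults (17720 genes used) and in the table of L1 larvae (23184 genes used). All animals were of the wild-type strain N2, and 7 groups had 3 libraries each. Day 1 adults, about 100 per library and fed when collected, were always-fed control animals with eggs, fertile F4L1starved animals and sterile F4L1starved animals. F4L1starved adults had themselves been starved in the first larval stage (L1), as had their ancestors in each generation from P0, and were picked by hand from shared plates as animals with eggs (fertile) or without eggs (sterile). First-stage larvae, about 10000 per library, came from always-fed control lines or from F4L1starved + 3fed lines, whose starved F4 ancestors were followed by fed generations, and each line was collected with food and without food. Larvae without food were collected at a later hour than larvae with food, so food and hour cannot be told apart. Each library pools whole animals of mixed cell types, so fewer cells of a type and less RNA per cell cannot be told apart.

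In RNA interference, double-stranded RNA is cut by Dicer into short interfering RNAs, which an Argonaute protein carries to matching transcripts. In worms these first small RNAs are then amplified by RNA-dependent RNA polymerases into secondary small RNAs, and some of these enter the nucleus, where they halt transcription and bring repressive histone methylation to the target gene. The germline uses this nuclear branch to pass silencing from parents to offspring, which is why these genes are often examined in studies of inheritance.

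DCR-1 is the only Dicer of the worm and makes both short interfering RNAs and microRNAs. RDE-4 is a double-stranded RNA-binding protein that hands RNA to DCR-1. RRF-3, an RNA-dependent RNA polymerase, and ERI-1, an exonuclease, belong to the ERI complex, which works with DCR-1 to make endogenous primary small RNAs and whose loss makes animals more sensitive to RNA interference. NRDE-3 is the Argonaute that carries secondary small RNAs into nuclei of somatic cells, and HRDE-1 is its counterpart in the germline. NRDE-2 is recruited by these Argonautes to nascent transcripts, and NRDE-1 and NRDE-4 act after it on chromatin. In the WBcel235 annotation *dcr-1* (WBGene00000939), *rde-4* (WBGene00004326) and *nrde-1* (WBGene00007577) lie on chromosome III, *rrf-3* (WBGene00004510) and *nrde-2* (WBGene00011333) on II, *eri-1* (WBGene00001332) and *nrde-4* (WBGene00001584) on IV, and *nrde-3* (WBGene00019862) on X. Exons of *nrde-1*, *nrde-4* and *rrf-3* share 99, 91 and 37 bases with a gene on the opposite strand (*C14B1.8*, *cima-1* and *T05C12.11*), and the sources used here do not say whether counting used strand.

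Libraries held 12187063 to 22942483 counted reads in adults and 25209530 to 53482585 in larvae. The 8 genes had 176 or more reads in every library, so all passed the filter on low values (a mean normalized count of at least 10). A normalized count is the reads of a gene divided by the size factor of its library. Marker genes fitted the stage labels: 6 adult markers (vitellogenins and *col-19*) summed to at least 1280800 normalized counts in each adult library and to at most 165 in each larval library, in tables that were normalized separately. Replicate 1 of fertile and replicate 1 of sterile F4L1starved adults stood apart from the others of their groups, with a chi-square per gene of 31.1 to 39.0 against them (1 would be counting error alone), where the remaining replicate pairs of adults gave 6.47 to 11.4. Among larvae, replicate 1 of control animals with food differed most from the others of its group (84.9 and 103.9 against 32.7). Results that rest on these libraries are given with and without them.

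Compared per length of exon, the genes formed an order that differed with stage and with fertility. In control adults *rde-4* was highest, at 77.9 ± 1.21 (SD, n = 3) RPKM (reads per kilobase of exon, scaled to the total reads of the library), followed by *nrde-4* at 60.6 ± 2.88, *dcr-1* at 53.1 ± 2.35 and *nrde-2* at 42.8 ± 1.73. Below these lay *rrf-3* at 28.5 ± 0.835, *nrde-3* at 28.4 ± 1.69, *eri-1* at 25.1 ± 1.61 and *nrde-1* at 19.2 ± 1.00. Neighbours in this order did not overlap in their libraries, except *rrf-3* and *nrde-3*. All 8 lay above the median of the tested genes, 8.41, with between 61.9% (*nrde-1*) and 90.0% (*rde-4*) of genes below them. In sterile adults the first place passed to *nrde-2*, at 30.4 ± 4.68, and *nrde-3* was last, at 6.37 ± 1.32, although *rrf-3*, *nrde-1*, *eri-1* and *nrde-3* each overlapped the next in the order.

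**Figure D1:**
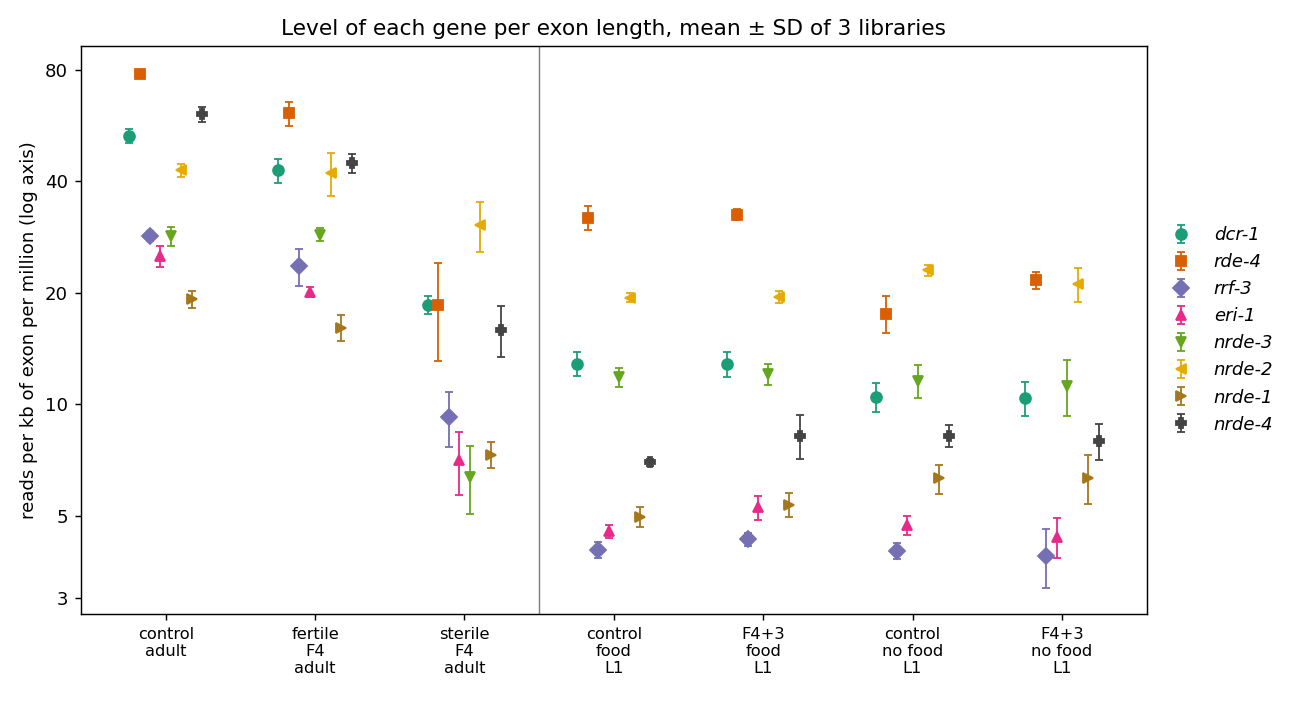
Level of each of the 8 genes in 7 groups, in RPKM on a log axis, as mean and SD of 3 libraries. In sterile adults *nrde-2* (30.4) stands above the other 7 genes, and in larvae without food *rde-4* comes down to or below the level of *nrde-2*. The adult and larval tables were normalized separately.

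In control larvae with food *rde-4* again led, at 31.9 ± 2.36 RPKM, and *nrde-2* (19.4 ± 0.547) came second. *dcr-1* (12.9 ± 0.947) and *nrde-3* (11.8 ± 0.716) overlapped each other. *nrde-4*, second in control adults, had 6.96 ± 0.157, followed by *nrde-1* (4.98 ± 0.320), *eri-1* (4.53 ± 0.180) and *rrf-3* (4.04 ± 0.202). The last 3 lay below the median of the tested genes, 6.57. Adult and larval levels were not tested against each other.

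The first comparison asked whether fertile adults that had been starved as larvae differ from always-fed adults. *nrde-4* fell, *dcr-1* missed the threshold narrowly, and 6 of the 8 genes lay below control in every library, whereas *nrde-2* and *nrde-3* had overlapping values. The decreases were modest, with fertile means between 0.711 (*nrde-4*) and 0.808 (*nrde-1*) of the control means for these 6 genes. The threshold was an adjusted p of 0.05 from limma over all 13413 genes tested in adults.

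*nrde-4* had 2614, 2400.2 and 2498 normalized counts in control replicates 1 to 3 and 1540.1, 1866 and 1935 in fertile ones. The groups did not overlap, and fertile replicate 1 was the lowest library. It was lower by limma, with a log2 fold change of -0.50, an SE of 0.14 and an adjusted p of 0.0300.

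*dcr-1* had 5383, 4854 and 5032 normalized counts in control libraries and 3349.6, 4401 and 4131 in fertile libraries. These values did not overlap either (log2 fold change -0.37, SE 0.12, adjusted p = 0.0513). *rde-4* had 1584, 1532 and 1464 against 1005, 1308 and 1154, again without overlap (log2 fold change -0.41, SE 0.20, adjusted p = 0.158). Of the ERI complex, *rrf-3* had 2753, 2471 and 2467 in control and 1634, 2269 and 2258 in fertile libraries, where fertile replicate 1 lay far below the other fertile ones (log2 fold change -0.33, adjusted p = 0.167). *eri-1* had 953, 839 and 906 against 618, 745 and 721 (log2 fold change -0.38, adjusted p = 0.106). All fertile libraries of these 4 genes were below all control libraries.

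Of the remaining nuclear factors, *nrde-1* had 921, 786 and 802 normalized counts in control and 563, 734 and 731 in fertile libraries, without overlap (log2 fold change -0.31, adjusted p = 0.119). The Argonaute gene *nrde-3* had 1783, 1498 and 1501 against 1411, 1564 and 1665, and 2 of the fertile libraries lay within the control range (log2 fold change -0.04, 95% interval -0.41 to 0.33). *nrde-2* had 2916, 2759 and 2805 against 2105, 2932 and 3037, so that fertile libraries lay on both sides of control (log2 fold change -0.09, 95% interval -0.45 to 0.27). These intervals do not show that the 2 genes were unchanged.

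**Figure D2:**
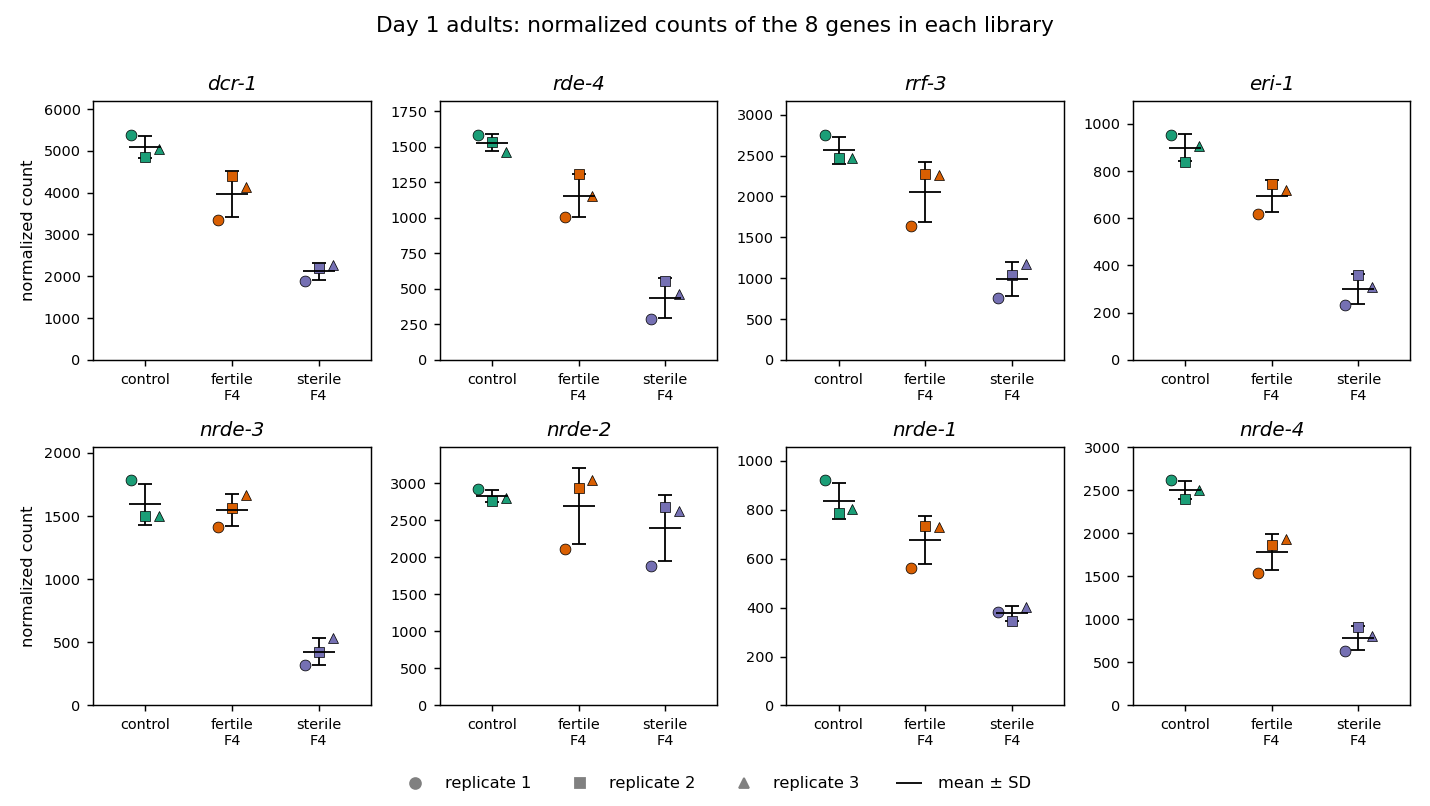
Normalized counts of the 8 genes in the 9 adult libraries, with 1 panel per gene and each point a library. The bar and whiskers give the mean and SD of 3 libraries. Fertile libraries lie below all control libraries for 6 genes but not for *nrde-2* and *nrde-3*, and sterile libraries lie below control for all 8.

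Among all genes tested in fertile adults, 21.9% were called in either direction and 32.6% lay below control without overlap, against 1 and 6 of the 8 genes. The median log2 fold change of the 8 was -0.35, where the median of all genes was -0.11. The count of calls moved with single libraries and with the tool. Leaving out any 1 control replicate, or fertile replicate 1 or 2, ended the call of *nrde-4* (adjusted p = 0.0584 to 0.114), and edgeR on recovered reads called 0 of the 8 genes, with *nrde-4* at an adjusted p of 0.0662. Without sterile replicate 1, whose spread enters the shared fit, *dcr-1*, *rde-4* and *eri-1* were called beside *nrde-4*, and with both replicates that stood apart left out, 3 genes were called (*nrde-4*, *dcr-1* and *rde-4*, with log2 fold changes of -0.40, -0.25 and -0.31). The latter fits were chosen after the data were seen, apart from leaving out 1 library at a time. Calls over all genes rose too, from 2936 of 13413 to 4880 of 13266 without sterile replicate 1 and 4103 of 13233 with both left out. Some of the 8 genes (*dcr-1*, *rde-4*, *nrde-2* and *nrde-4*) are among 10 small RNA factors that the study names, from earlier work, as targets of insulin signalling and examined in these libraries. Of those 10 genes 2 were called lower in fertile adults and 8 in sterile adults. Among all 13413 tested genes, 1613 were called lower in fertile and 5602 in sterile adults.

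Markers of other cells moved in the same libraries. All 22 germline and oocyte markers lay below control in every fertile library, 2 of them called lower, and their sum was 285172 to 333070 normalized counts in control and 185067 to 231556 in fertile libraries, lowest in fertile replicate 1. The sum of 13 sperm markers was 66.5 to 219.8 in control and 216.6 to 880.4 in fertile libraries, highest in fertile replicate 1, and 5 were called higher. Of 10 neuron markers 3 were called higher and 1 lower. Muscle markers (0 of 7 called) and intestine markers (0 of 8 called) had medians of 0.19 and 0.14 on the log2 scale. The part of these markers in the lower counts of the 8 genes was not tested.

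The second comparison set sterile F4L1starved adults against the same control libraries. Here 7 of the 8 genes fell, to between 0.268 (*nrde-3*) and 0.452 (*nrde-1*) of the control mean, and *nrde-2* was the exception at 0.848. Of all tested genes 41.8% were called lower, and the libraries of 42.7% lay below control without overlap, against 7 and 8 of the 8 genes.

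*nrde-3* showed the largest decrease of the 8. It had 320.1, 425 and 536 normalized counts in sterile libraries, against 1498 to 1783 in control libraries. The groups lay far apart (log2 fold change -1.92, SE 0.17, adjusted p = 9.90e-07). *rde-4* had 286, 556 and 465 normalized counts in sterile libraries, all below its lowest control value of 1464 (log2 fold change -1.86, SE 0.20, adjusted p = 4.66e-06). *nrde-4* had 635, 908 and 807, against 2400.2 or more (log2 fold change -1.69, SE 0.14, adjusted p = 7.19e-07).

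The estimated decreases of *eri-1*, *rrf-3*, *dcr-1* and *nrde-1* were smaller, though genes were not tested against each other. *eri-1* had 234, 360.3 and 310.0 normalized counts in sterile libraries (log2 fold change -1.60, SE 0.16), *rrf-3* had 761, 1041 and 1175 (log2 fold change -1.39, SE 0.17) and *dcr-1* had 1888, 2195 and 2278 (log2 fold change -1.27, SE 0.12). *nrde-1* had 384, 344 and 405 (log2 fold change -1.14, SE 0.14). The adjusted p from limma was 1.13e-05 or less for these 4 genes, and every sterile library lay below every control library.

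*nrde-2* had 1886, 2684 and 2618 normalized counts in sterile libraries and 2759 to 2916 in control libraries. Sterile replicates 2 and 3 were just below the lowest control value and replicate 1 was far below it, and the change did not pass (log2 fold change -0.26, SE 0.16, 95% interval -0.61 to 0.10, adjusted p = 0.162). Scaling by total counts in place of size factors lowered the median log2 fold change of all genes from 0.14 to -0.10 and made *nrde-2* pass (log2 fold change -0.50, adjusted p = 0.00332). Relative to the median gene the change of *nrde-2* was -0.39 with size factors and -0.40 with total counts, and that of *nrde-3* was -2.06 and -2.07. These values are alike by construction, because a change of scaling shifts all genes of a library alike. The change of *nrde-2* shrank to -0.09 (adjusted p = 0.541) without sterile replicate 1 and to -0.04 (adjusted p = 0.790) with edgeR. The 7 calls were made whichever single library was left out, and with replicate 1 of fertile and of sterile animals left out together.

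**Figure D3:**
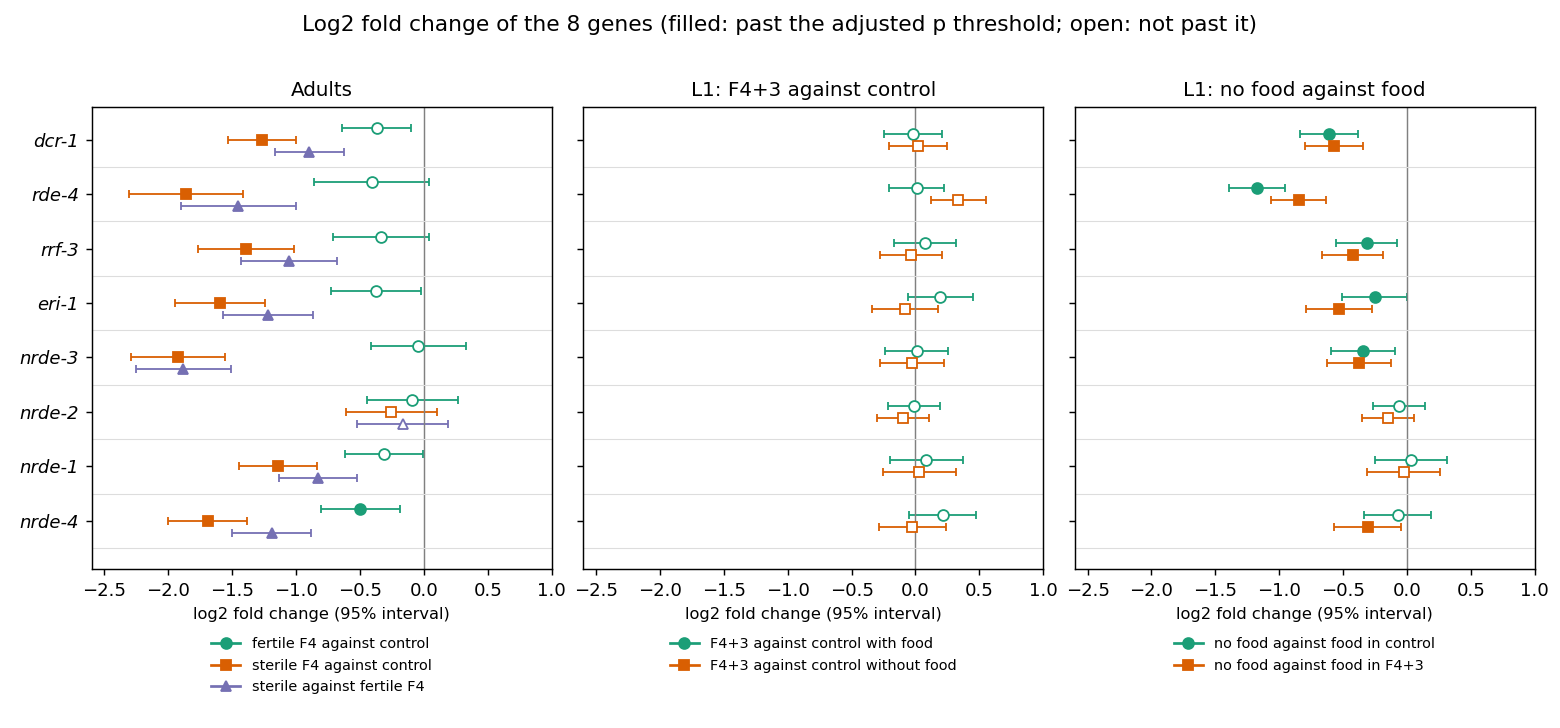
Log2 fold change of the 8 genes with 95% interval from limma, in adults (3 comparisons), in larvae of F4L1starved + 3fed against control lines, and in larvae without against with food (F4+3 stands for F4L1starved + 3fed). Filled symbols passed the adjusted p threshold (0.05 in adults, 0.1 in larvae). In sterile adults 7 genes lie between -1.92 and -1.14, and the symbols of F4L1starved + 3fed against control larvae are all open.

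The fertile and sterile animals were also compared with each other, which sets apart animals that shared the same larval starvation. Again 7 of the 8 genes were lower in sterile animals, without overlap, where 39.6% of all tested genes were called lower and 39.6% lay lower without overlap. *nrde-3* differed most, at 0.276 of the fertile mean (log2 fold change -1.88, SE 0.17, adjusted p = 4.88e-06), and 6.77% of all tested genes had a lower log2 fold change. *rde-4* stood at 0.377 of the fertile mean (log2 fold change -1.45), *eri-1* at 0.434 (-1.22), *nrde-4* at 0.440 (-1.19), *rrf-3* at 0.483 (-1.06), *dcr-1* at 0.535 (-0.90) and *nrde-1* at 0.559 (-0.83). Their adjusted p was 0.000197 or less. These 7 calls were made whichever single library was left out (adjusted p up to 0.00163), and also with replicate 1 of fertile and of sterile animals left out together.

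*nrde-2* overlapped between fertile and sterile libraries, at 0.890 of the fertile mean (log2 fold change -0.17, SE 0.16, 95% interval -0.52 to 0.19, adjusted p = 0.359). Fertile and sterile animals of 1 replicate number came from the same plates, and replicate 1 was the lowest of its group in both (2105 and 1886 normalized counts). With these 6 libraries alone and the replicate number as a block, *nrde-2* passed with the same log2 fold change of -0.17 (adjusted p = 0.0472), and the count rose from 7 to 8. Of all genes 5258 were called lower in that fit, against 5313 in the main one. Without sterile replicate 1 the log2 fold change of *nrde-2* was -0.0031 (adjusted p = 0.985), but this fit kept fertile replicate 1 and so broke the pairing. Within each replicate number the sterile library was lower, with 1886 against 2105, 2684 against 2932 and 2618 against 3037 normalized counts. With total counts *nrde-2* passed, at -0.47 (adjusted p = 0.00558), while the split of all calls moved from 5206 higher and 5313 lower to 3905 and 6009.

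Ratios within a library do not depend on its scaling. *nrde-2* was chosen as the reference after its values were seen, so these ratios are given as a description. *nrde-3* had 0.535 to 0.611 counts for each count of *nrde-2* in control libraries and 0.534 to 0.670 in fertile ones, and 0.158 to 0.205 in sterile ones. *dcr-1* had 1.76 to 1.85 in control, 1.36 to 1.59 in fertile and 0.818 to 1.00 in sterile libraries. *nrde-4* went from 0.870 to 0.896 in control to 0.636 to 0.732 in fertile and 0.308 to 0.338 in sterile libraries, so its 3 groups did not overlap. The same held for the ratios of *dcr-1*, *rde-4*, *rrf-3*, *eri-1* and *nrde-1*, but not for *nrde-3*. The share of all genes whose ratios to *nrde-2* separate in this way was not computed, so this is not a trait particular to these genes.

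Marker lists changed along with the 7 genes. All 22 germline and oocyte markers were called lower in sterile against control adults, and their sum was 32431 to 68378 normalized counts in sterile libraries, lowest in replicate 1. All 13 sperm markers were called higher, with a sum of 9428 to 11232 against 66.5 to 219.8 in control libraries. Of 10 early embryonic markers 6 passed the filter and were called lower, and *hlh-27*, *med-2* and *tbx-38* were at 0 in every sterile library. Markers of muscle (7 of 7), neurons (9 of 10) and intestine (6 of 8) were called higher, and 1 neuron marker was called lower. The sum of the 8 genes was 17139 to 18906 in control, 12225 to 15820 in fertile and 6393 to 8594 in sterile libraries. The part of the changed mixture of cells in these decreases was not tested.

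**Figure D4:**
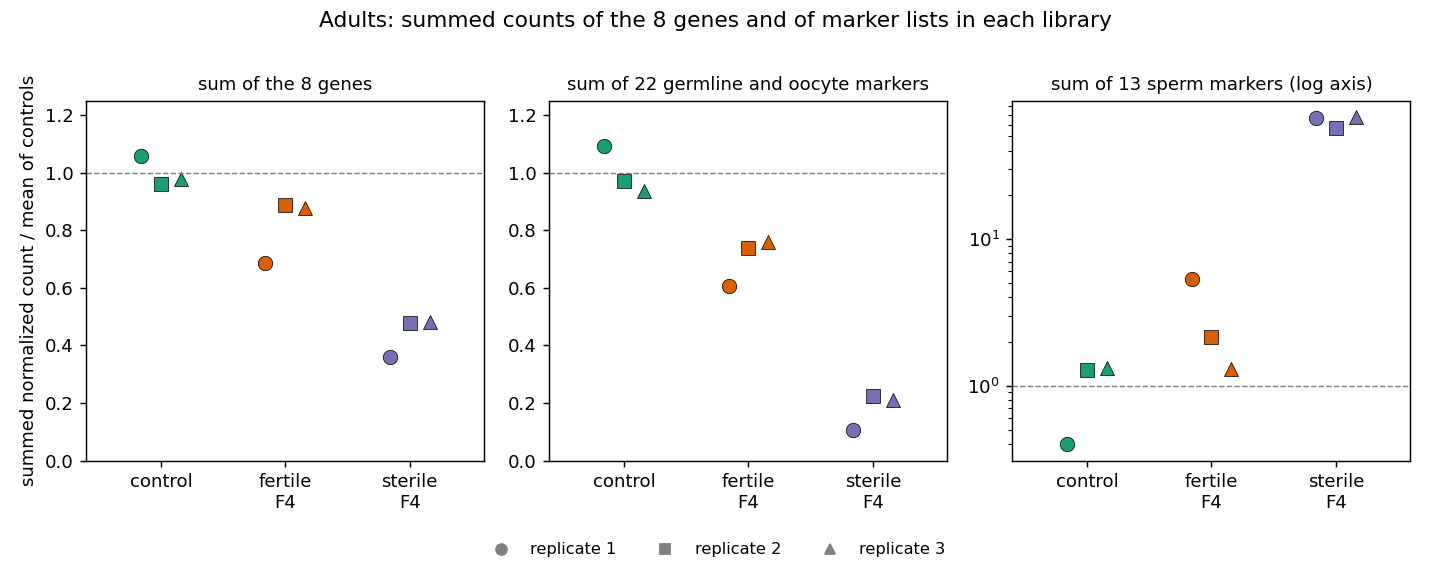
Summed normalized counts in each adult library divided by the mean of the 3 control libraries, for the 8 genes, for 22 germline and oocyte markers and for 13 sperm markers (log axis), with each point a library. Sterile libraries lie at 0.358 to 0.482 for the 8 genes, 0.106 to 0.224 for germline and oocyte markers and 56.7 to 67.5 for sperm markers.

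Genes that work with these factors were counted from lists written from general knowledge. For comparison, of all 13413 tested genes 1323 were called higher and 1613 lower in fertile against control adults. In sterile against control adults these counts were 5537 and 5602. Of 18 partners of Dicer and the ERI complex, 15 were called lower and 3 higher in sterile against control adults (median log2 fold change -1.21). *ergo-1*, the Argonaute that binds primary small RNAs of oocytes and embryos, fell from 7918 ± 924 (SD, n = 3) to 1746 ± 457 normalized counts (log2 fold change -2.21, SE 0.18, adjusted p = 6.53e-07). *alg-3* and *alg-4*, the Argonautes that bind such RNAs during sperm formation, rose instead. *alg-3* had 2.81 to 12.3 normalized counts in control, 20.6 to 99.9 in fertile and 1148 to 1360.1 in sterile libraries, so that no groups overlapped (log2 fold change 2.38 in fertile and 7.22 in sterile animals against control, adjusted p = 0.0127 and 4.16e-07). *alg-4* had 3.75 to 10.6, 34.4 to 82.3 and 1376 to 1776 in the same order (log2 fold change 2.57 and 7.50, adjusted p = 0.00198 and 1.46e-07). The fold changes of both genes rest on few reads in control libraries, and the rise goes with that of the sperm markers above. In fertile against control adults these were the 2 genes called higher, and *eri-9* and *pir-1*, a phosphatase that acts on RNA and associates with DCR-1, were the 2 called lower (log2 fold changes -0.53 and -0.68).

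Of 16 nuclear RNA interference Argonautes and chromatin partners, 3 were called lower in fertile and 14 in sterile adults against control, with medians of -0.39 and -1.52. *hrde-1*, the germline counterpart of *nrde-3*, had 17037 ± 2164 (SD, n = 3) normalized counts in control, 13003 ± 1739 in fertile and 4109 ± 1180.0 in sterile libraries (log2 fold change -2.09 in sterile against control adults, adjusted p = 1.40e-06). *mes-6*, a subunit of the complex that methylates histone H3 in the germline, had 1284 ± 52.2, 906 ± 93.6 and 294 ± 67.4 and was called lower in both. The histone methyltransferase gene *set-25* had a log2 fold change of -2.17 in sterile adults. Of 9 measured genes of the mutator complex and RNA amplification, 1 was called lower in fertile (*mut-16*, which organizes the complex, log2 fold change -0.60, adjusted p = 0.00813) and 8 in sterile adults, including *mut-2* (-2.15). Of 12 microRNA pathway genes, 2 were higher and 2 lower in fertile adults, and 10 were lower in sterile adults. The microRNA Argonaute gene *alg-1* was higher in fertile against control adults (log2 fold change 0.36, adjusted p = 0.0352), and its paralog *alg-2* was lower in sterile against control adults (-1.77). *alg-2* had 2186 ± 180 (SD, n = 3) normalized counts in control and 2167 ± 264 in fertile libraries. In sterile against fertile adults all 12 genes of this list, both paralogs among them, were called lower, as were 39.6% of all tested genes.

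In larvae, the comparison of F4L1starved + 3fed with control lines asked whether ancestral starvation left a trace after fed generations. None of the 8 genes passed with or without food at an adjusted p of 0.1 (limma), and across all 15902 genes 0.0126% with food and 0.0% without food passed, while 1366 and 811 genes had an unadjusted p under 0.05. With the replicate number as a block 52 and 3 of all genes passed, and 0 of the 8. DESeq2 called more of all genes, 216 with food and 48 without food, but 0 of the 8 in each. By edgeR 0 of the 8 passed in each. At an unadjusted p under 0.05 by limma there were 0 of the 8 with food and 1 without food. With food the log2 fold changes ran from -0.02 (*dcr-1*) to 0.21 (*nrde-4*), and the 95% intervals of the 8 genes lay between -0.25 and 0.47.

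*eri-1* was the only gene of the 8 without overlap with food. It had 467, 433 and 442 normalized counts in control and 505, 479 and 555 in F4L1starved + 3fed larvae, all higher (log2 fold change 0.19, SE 0.12, adjusted p = 0.686). Of all tested genes 6.81% lay higher without overlap. *nrde-4* had 856, 727 and 799 against 835, 864 and 1074, with replicate 3 of F4L1starved + 3fed larvae above the rest (log2 fold change 0.21, SE 0.12, adjusted p = 0.661).

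Without food *rde-4* had the lowest p. It had 729.7, 861 and 705 normalized counts in control and 954, 994 and 939 in F4L1starved + 3fed larvae. The groups did not overlap, as for 6.41% of all tested genes in this direction. The log2 fold change of 0.34 (SE 0.10, 95% interval 0.12 to 0.55) had an unadjusted p of 0.00486 and failed the correction (adjusted p = 0.709). The effect of ancestry on *rde-4* differed between no food and food by 0.32 (SE 0.14) on the log2 scale, with an unadjusted p of 0.0392 and an adjusted p of 1.0, and 0 of the 8 genes and 0.0% of all genes passed for this difference (636 genes with an unadjusted p under 0.05). The other 7 genes overlapped between lines without food, with log2 fold changes from -0.10 (*nrde-2*) to 0.03 (*nrde-1*).

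**Figure D5:**
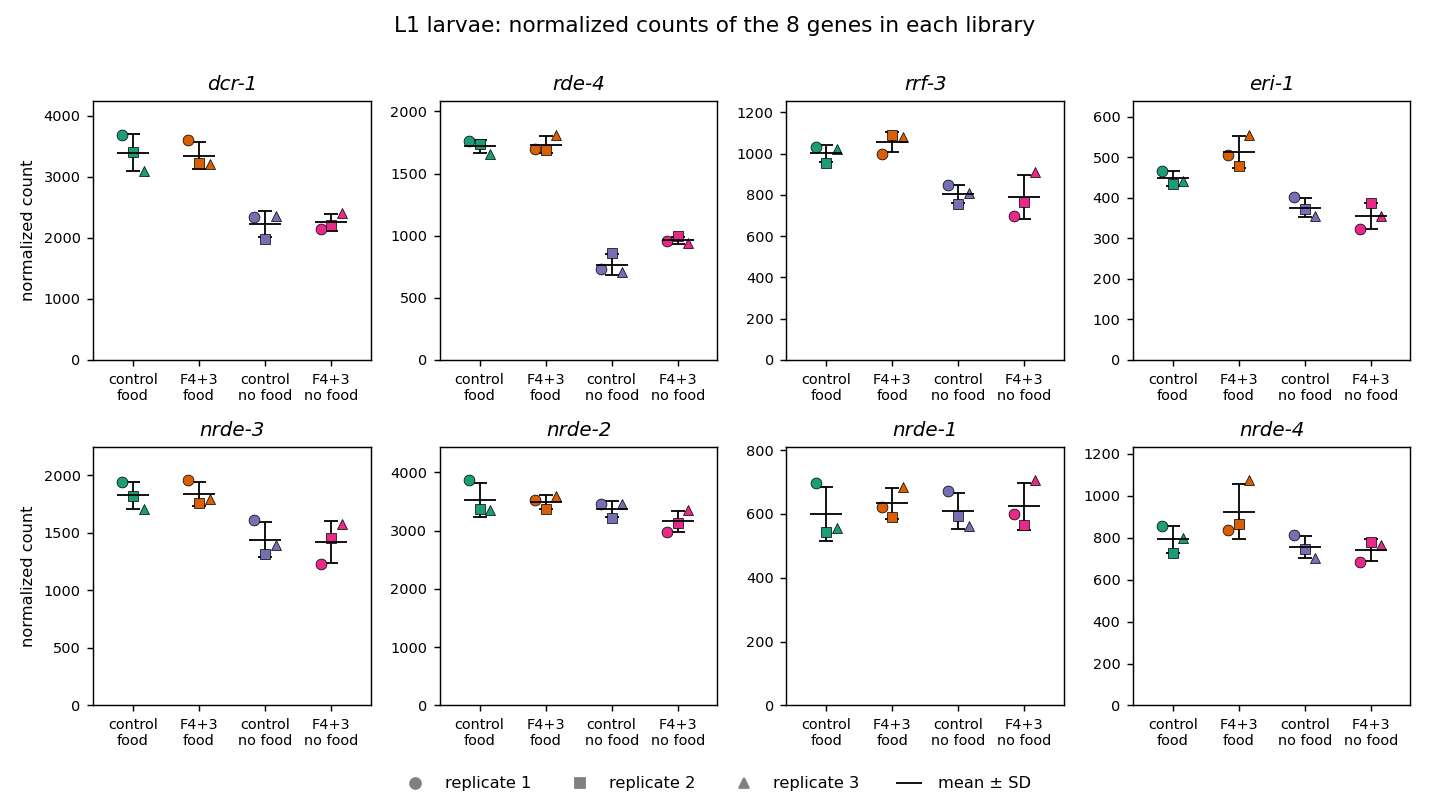
Normalized counts of the 8 genes in the 12 larval libraries, with 1 panel per gene and each point a library. The bar and whiskers give the mean and SD of 3 libraries. *rde-4* and *dcr-1* are lower in every library without food than in every library with food, and the lines of control and F4L1starved + 3fed animals overlap for most genes.

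*rde-4* and *dcr-1* were lower in the larvae without food of both lines. Among control larvae, *rde-4* had 1759, 1741 and 1660.4 normalized counts with food and 729.7, 861 and 705 without (0.445 of the mean with food, log2 fold change -1.17, SE 0.10, adjusted p = 2.42e-07), and 9.06% of all tested genes had a lower log2 fold change. In F4L1starved + 3fed larvae it had 1695, 1693 and 1812 with food and 954, 994 and 939 without (0.555 of the mean, log2 fold change -0.85, SE 0.10, adjusted p = 5.74e-06). All libraries without food lay below all libraries with food.

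*dcr-1* had 3685, 3405 and 3093 normalized counts in control larvae with food and 2337, 1980.1 and 2357 without (0.655 of the mean, log2 fold change -0.61, SE 0.11, adjusted p = 0.000226). In F4L1starved + 3fed larvae it had 3602, 3217 and 3209.8 against 2136, 2209 and 2412 (0.674 of the mean, log2 fold change -0.57, adjusted p = 0.000404). These groups did not overlap either.

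With size factors, 5 of the 8 genes were called lower in control larvae (30.5% of all tested genes) and 6 in F4L1starved + 3fed larvae (30.4%). The libraries with and without food did not overlap for 5 of the 8 genes in control larvae and for 7 in F4L1starved + 3fed larvae, lower without food each time, while 58.3% and 59.3% of all tested genes did not overlap in either direction. *nrde-3* had 1711 to 1945 normalized counts with food and 1314 to 1612 without in control larvae (log2 fold change -0.34, adjusted p = 0.0230), and 1758 to 1956 against 1225 to 1580.4 in F4L1starved + 3fed larvae (-0.38, adjusted p = 0.0140). *rrf-3* had log2 fold changes of -0.32 and -0.43 (adjusted p = 0.0299 and 0.00554), and *eri-1* of -0.25 and -0.53 (adjusted p = 0.0921 and 0.00178). The libraries of these 3 genes did not overlap in either line. *nrde-4* was called in F4L1starved + 3fed larvae (-0.31, adjusted p = 0.0482), with values of 835 to 1074 with food and 684 to 778 without, and not in control larvae (-0.07, adjusted p = 0.648), where 706 to 812 without food overlapped 727 to 856 with food. The difference between the lines did not pass for *nrde-4* (-0.24, SE 0.17, adjusted p = 1.0). *nrde-1* and *nrde-2* were called in neither line, with log2 fold changes from -0.15 to 0.03, and *nrde-2* of F4L1starved + 3fed larvae was the gene without overlap that did not pass (adjusted p = 0.211).

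The smaller changes depended on how libraries were scaled. With total counts the median log2 fold change of all genes without against with food moved from 0.04 to 0.34 in control larvae and from 0.02 to 0.28 in F4L1starved + 3fed larvae, and the split of all calls in control larvae moved from 4391 higher and 4846 lower to 7010 and 3192, and in F4L1starved + 3fed larvae from 4313 and 4833 to 6386 and 3378. In control larvae *rde-4* (-0.86) and *dcr-1* (-0.30) were then still called lower, *nrde-1* (0.34) and *nrde-2* (0.25) were called higher, and the calls of *nrde-3*, *rrf-3* and *eri-1* ended, *eri-1* and *nrde-4* with a change of sign. In F4L1starved + 3fed larvae *rde-4* (-0.59), *dcr-1* (-0.31) and *eri-1* (-0.27) were called lower with total counts, and *nrde-1* and *nrde-2* changed sign without passing. A change of scaling shifts all genes of a library alike, so values relative to the median gene stay nearly the same by construction. They place each gene against the others but do not check the scaling. In control larvae *rde-4* stood at -1.21 under either scaling, *dcr-1* at -0.65 and -0.64, *nrde-3* at -0.38 under either, *eri-1* at -0.29 under either and *nrde-1* at -0.01 and -0.00. The call of *eri-1* in control larvae also ended in 8 of 12 fits that left out 1 library (adjusted p up to 0.233, and 0.182 without replicate 1 of control larvae with food, which ended no other call of the 8 genes) and with the replicate number as a block (adjusted p = 0.109), and that of *nrde-4* in F4L1starved + 3fed larvae ended without replicate 3 with food (adjusted p = 0.229) or replicate 1 without food (adjusted p = 0.146).

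Partner genes moved alongside. For comparison, of all 15902 tested genes 4391 were called higher and 4846 lower without food in control larvae. In F4L1starved + 3fed larvae these counts were 4313 and 4833. Of 16 tested partners of Dicer and the ERI complex, 9 in control and 10 in F4L1starved + 3fed larvae were called lower without food and 0 higher. Among these, *drh-3*, a helicase needed for secondary small RNAs, had 1583 ± 70.7 (SD, n = 3) normalized counts with food and 908 ± 140.0 without in control larvae (log2 fold change -0.81, adjusted p = 3.71e-05), and *eri-9* had 1653 ± 153 and 888 ± 11.9 (-0.89). Of 16 nuclear Argonautes and chromatin partners 10 were called lower in each line and 1 higher in F4L1starved + 3fed larvae, and the lower ones included *prg-1*, the Argonaute of piRNAs (-1.27 in control and -1.39 in F4L1starved + 3fed larvae), and *ama-1*, the large subunit of RNA polymerase II (-0.89 and -0.92). In the microRNA pathway 8 of 12 genes were called lower and 1 higher in each line, and *tsn-1*, a nuclease of the RNA-induced silencing complex, had the lowest p of its list (26857 ± 1515 with food and 3572 ± 434 without in control larvae, log2 fold change -2.92). Of 9 measured mutator and amplification genes, 5 in control and 4 in F4L1starved + 3fed larvae were called lower, and 1 in control larvae higher. Germline and oocyte markers have low counts in larvae, with their small germline. In control larvae 3 of 22 were called higher and 4 lower, and their sum was 6440 to 6976 with food and 5967 to 6523 without. In F4L1starved + 3fed larvae 6 were called higher and 6 lower, with overlapping sums of 6652 to 7082 with food and 5509 to 7197 without. Intestine markers went both ways in control larvae, with 3 of 8 called higher and 4 lower, and summed to 512260 to 661715 with food and 379755 to 408187 without. Of 10 neuron markers 6 were called higher and 1 lower in control larvae, and their sum was 70583 to 84429 with food and 90371 to 92048 without. In F4L1starved + 3fed larvae 5 neuron markers were called higher and 0 lower, and of the intestine markers 3 were called higher and 3 lower. The part of these tissues in the lower counts was not tested.

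The genes whose pattern over the libraries was most like that of each member, by the smallest root mean square difference of log2 values centred on their mean, were *pas-5* for *dcr-1* (0.040 over 9 adult libraries), *ZK1127.3* for *rde-4* (0.042), *sel-10* for *rrf-3* (0.052), *dcaf-1* for *eri-1* (0.041), *vab-1* for *nrde-3* (0.056), *iars-1* for *nrde-2* (0.069), *F44E2.10* for *nrde-1* (0.063) and *Y41D4B.4* for *nrde-4* (0.029). Within the 8 genes, *nrde-4* and *eri-1* were nearest each other in adults (0.066), with 26 and 33 of 13412 other genes closer to them. *nrde-2* was the most distant, 0.41 from the nearest member (*nrde-1*), with 2418 genes closer. Over the 12 larval libraries *rde-4* was the most distant, 0.28 from *dcr-1*, with 1803 of 15901 genes closer, and *nrde-3* and *rrf-3* were nearest each other (0.090).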

How the data were processed

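Whole *C. elegans* of strain N2 were sequenced in 21 libraries of 7 groups, 3 independent biological replicates each. The authors mapped reads with Subread (build WS220), assigned them to genes with featureCounts and scaled the counts in DESeq2 (versions not given in the sources used here). The deposited signal values are these DESeq2-normalized counts per gene and library. For 7 adult libraries the deposited values are listed as a score, because some filled or shifted cells of 3 rows lay below 0. These 3 adult rows and 1 larval row with shifted cells were left out. The deposited tables also hold the authors' fold changes and p-values, which were not used.

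Values of a library were divided by what 1 read is worth there, read from its low values, and 100.0% of values above 0 came out whole within 0.1. This recovery of reads was not covered by a separate check of units for the 7 adult libraries and for replicate 2 of control larvae without food, which bears on results of edgeR and DESeq2 and on reads per kilobase. Exon lengths and chromosomes are from WBcel235, matched by gene ID, and no coordinates or sequences were used here.

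Every adjusted p is from limma 3.58.1 (R 4.3.3, empirical Bayes with trend) on log2(normalized count + 1), unless another tool is named, for genes whose mean normalized count was 10 or more. Adult and larval libraries were fitted separately, each with all their groups, and p was adjusted after Benjamini-Hochberg over the genes tested. Fold changes on this scale understate those of genes with few counts. In simulated data for fertile against control adults, the test found 22.4% of 1.5-fold, 43.3% of 2-fold and 72.7% of 4-fold changes. For ancestry with food in larvae it found 23.9%, 73.1% and 92.4%. False calls were 4 of 96 and 11 of 137. The changed genes were drawn from all tested genes, so these shares are not those of the 8 genes. Some genes that were not called can still differ by such amounts. The 95% intervals of the 8 genes stayed within a 2-fold change in both comparisons. On the log2 scale they lay between -0.86 and 0.33 in fertile adults and between -0.25 and 0.47 for ancestry with food. Alternatives were a pseudocount of 0.5, no filter, total-count scaling, edgeR 4.0.16 and DESeq2 1.42.0 on recovered reads, the replicate number as a block and leaving out each library. Added after the data were seen were fits of control with fertile libraries, of fertile with sterile libraries with the block, and without replicate 1 of both. Fertile and sterile animals of 1 number were picked from the same plates, so these numbers pair the samples. Deviations of their libraries from the group means correlated at 0.384, 0.183 and 0.175. Adult pairs with unlike numbers reached 0.202, so the pairing rests on the plates and not on these correlations. Libraries of a group differed by more than counting error (chi-square per gene of at least 6.47).

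The 8 genes and the gene lists were chosen with earlier results of these data known. All 8 genes were named throughout, and partner genes were named from among the 4 genes with the lowest p that were called in each list and comparison. *hrde-1* in fertile and in sterile against control adults is given as the counterpart of *nrde-3*. *alg-4* (larvae), *cde-1* and 5 sperm markers (larvae) were not found by name. The deposited adult and larval tables were normalized separately and are compared in level only, without a test. Fertile and sterile comparisons share their control libraries.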

Additional observations from a re-analysis of the deposited data

How the results depend on the processing

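Pseudocount 0.5 changed no call of the 8 genes. In fertile against control adults 1 of the 8 was called, against 0 with edgeR, 2 with DESeq2 or total counts (*dcr-1* gained), 4 with control and fertile libraries alone, 3 without replicate 1 of fertile and sterile animals, and 0 to 4 with 1 library left out. Calls over all genes were 2936 there, 2915 with edgeR, 3872 with DESeq2 and 3025 with total counts. They were 5011 with control and fertile libraries alone, 4103 without replicate 1 of fertile and sterile animals and 975 to 4880 with 1 library left out. Total counts gave 3 calls of the 8 without against with food in F4L1starved + 3fed larvae, in place of 6. For ancestry with food, 2 of all genes were called, against 52 with the replicate number as a block, 216 with DESeq2 and 1 to 128 with 1 library left out. For ancestry without food 0 were called, against 1 without a filter, 3 with the block, 48 with DESeq2 and 0 to 8, and for the difference 0, against 1, 17 and 0 to 6 for the block, DESeq2 and libraries left out. The cause of these shifts was not tested.

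Log2 fold changes turned sign as follows, in no case from a value that had passed except *eri-1* in control larvae. With edgeR these were *nrde-2* (0.075) and *nrde-3* (0.11) in fertile adults, *nrde-3* (-0.0031) and *rde-4* (-0.0010) for ancestry with food and *nrde-1* without food in F4L1starved + 3fed larvae (0.011). With total counts they were *nrde-3* in fertile adults (0.016), *nrde-2* for ancestry with food (0.0087), *dcr-1* for ancestry without food (-0.0086) and for the difference (-0.0078), *nrde-2* (0.25), *nrde-4* (0.24) and *eri-1* (0.056) without food in control larvae, and *nrde-1* (0.24) and *nrde-2* (0.11) in F4L1starved + 3fed larvae. Without replicate 1 of fertile and sterile animals *nrde-2* (0.079) and *nrde-3* (0.023) turned in fertile adults. Leaving out 1 library turned 17 values. Their ranges were -0.19 to 0.079 (*nrde-2*) and -0.097 to 0.041 (*nrde-3*) in fertile adults, and for ancestry with food -0.046 to 0.056 (*nrde-2*), -0.037 to 0.055 (*nrde-3*), -0.086 to 0.041 (*dcr-1*) and -0.022 to 0.028 (*rde-4*). For ancestry without food they were -0.062 to 0.10 (*nrde-1*), -0.11 to 0.078 (*nrde-3*), -0.070 to 0.036 (*nrde-4*), -0.061 to 0.065 (*dcr-1*) and -0.14 to 0.052 (*rrf-3*), and for the difference -0.17 to 0.018 (*nrde-1*), -0.11 to 0.069 (*nrde-3*) and -0.041 to 0.11 (*dcr-1*). Without food they were -0.043 to 0.14 (*nrde-1*) and -0.096 to 0.0050 (*nrde-2*) in control larvae and -0.12 to 0.041 (*nrde-1*) in F4L1starved + 3fed larvae.

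Control animals were collected at the same time as the starved lines, per the methods of the study, which do not say that replicate numbers mark this. Deviations of same-numbered libraries from their group means correlated at -0.290 to 0.384 in adults and -0.161 to 0.174 in larvae. Over 0.1 were 3 of 9 adult pairs (fertile with sterile animals) and 8 of 18 larval pairs. Of pairs with unlike numbers 4 of 18 in adults and 6 of 36 in larvae were over 0.1. The larval medians were 0.076 for same and -0.033 for unlike numbers. Whether larval numbers mark shared replicates was not tested. Numbers other than those of fertile and sterile animals were treated as pairs only in the fits with the block. With the block over all groups the call of *eri-1* in control larvae without food ended (adjusted p = 0.109), as it did without a filter (0.134), with edgeR (0.112) and with DESeq2 (0.121), and the block changed no other call of the 8 genes.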
